A study of Rattus norvegicus with 87 samples.

Results

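The genes described here are 7 members of the circadian clock, taken from a table of 17512 genes measured in Heterogeneous Stock (HS) rats, in the lateral habenula (LHb). They were chosen by their Ensembl identifiers from a given list, not by their values: Arntl (ENSRNOG00000014448), Clock (ENSRNOG00000002175), Per1 (ENSRNOG00000007387), Per2 (ENSRNOG00000020254), Nr1d1 (ENSRNOG00000009329), Nr1d2 (ENSRNOG00000046912) and Dbp (ENSRNOG00000021027). Earlier results of these data were known when the genes were chosen. All 7 were in the table and none was listed at 0 in any rat. HS rats are an outbred population descended from inbred founder strains, and the LHb is a small epithalamic nucleus that was dissected from both sides of frozen brain sections. Polyadenylated RNA was sequenced from 81 rats, 41 males and 40 females, each contributing 1 sample. The animals shared cages, and no drug or behavioural task had been given to any of them. There were thus no treated and control groups, and the labels divide the rats by sex and by rat batch only. There were 11, 10, 12 and 8 males and 4, 12, 15 and 8 females in batches 2, 3, 4 and 6, and batch 5 was a single female. The time of day at which brains were collected and the ages of single rats are not given in the sources used here.

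The circadian clock is a feedback loop of transcription that most cells keep, including neurons and glia outside the central pacemaker of the hypothalamus. The proteins BMAL1 (the product of Arntl) and CLOCK act as a dimer on E-box sequences and activate Per, Cry, Nr1d1, Nr1d2 and Dbp, and the PER and CRY proteins then inhibit the dimer. The REV-ERB proteins encoded by Nr1d1 and Nr1d2 repress Arntl through RRE sequences, and DBP activates genes through D-box sequences. The LHb is known as a brain region with clock gene rhythms of its own. Transcripts of opposite arms of the loop peak at different times of day, so that in tissues sampled around the clock Arntl is high when Dbp and Nr1d1 are low.

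These elements were looked for in the RefSeq promoters of the 7 genes (build GRCr8, from 250 bases before to 50 bases after each annotated start), 9 promoters in all, because Clock and Nr1d1 had more than 1. RefSeq lists Arntl under the symbol Bmal1. The letters searched on both strands were CACGTG for the E-box, TTATGTAA or TTACGTAA for the D-box, TAGGTCA for the RRE core and TGACGTCA for the cAMP response element (CRE). The 3 matches are shown because each is an element through which clock proteins act on their own genes, with the matched letters in capitals and 30 bases of the gene's own strand, 5′ to 3′.
Arntl, RRE core, chr1:176766301-176766330, plus strand: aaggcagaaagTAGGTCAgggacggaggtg
Per2, D-box, chr9:99497167-99497196, minus strand: ccatgtgcgtcTTATGTAAagagagcgacg
Nr1d1, E-box, chr10:84229628-84229657, minus strand: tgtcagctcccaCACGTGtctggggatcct
The match in Arntl began 16 bases before the start, while those in Per2 and Nr1d1 lay in the upstream part of their windows, in Nr1d1 191 bases before the start of its downstream promoter. None of these letters stood in the windows of Clock, Per1, Nr1d2 or Dbp. Among all 33469 promoters of the table, 6.42% held the E-box, 1.01% the D-box, 2.63% the RRE core and 1.83% the CRE. A match describes the letters of the window and does not show that a protein binds there.

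All values are log2(normalized count + 1), where a normalized count is the authors' estimated read count per gene after scaling to a common upper quartile. Scaled totals lay between 16.2 and 20.2 M counts per rat (M, 1000000). Totals before scaling, recovered for 64 rats, ranged from 5.74 to 50.6 M, with a median of 19.2 M. In each rat between 296 and 1661 genes were listed at 0. Levels are not compared between genes, since the counts are not divided by transcript length. Rat identifiers stand in alphabetical order in 3 stretches of columns, termed column runs, apart from 2 neighbouring rats of run 2 whose labels the authors had exchanged. What a run stands for is not given in the labels. Batch 2 stood wholly in run 1 and batches 4, 5 and 6 in run 3, while batch 3 was spread over runs 1 (7 rats), 2 (12 rats) and 3 (3 rats). Batch 5 was left out of every fit, which leaves 80 rats. Tests were made with limma over all genes of the table, and adjusted p means the Benjamini-Hochberg value over all of them, with a threshold of 0.05. The RNA comes from whole dissected tissue, so fewer cells of a type and less RNA per cell cannot be told apart.

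The 7 genes differed in how widely they ranged among rats of one tissue. The widest ranges were those of Per2, Dbp and Nr1d1. Dbp, a transcription factor of the PAR bZIP family whose transcript is a direct target of CLOCK and BMAL1, ranged from 9.80 through a median of 10.94 to 11.90 over the 81 rats, a 4.28-fold range. Nr1d1 (REV-ERBα) ranged from 8.52 through 9.54 to 10.47, or 3.87-fold. The lowest rat for both genes was female rat 29 of batch 6 and the highest was male rat 24 of batch 3, and male rat 19 of batch 4 was next to lowest for both. The period gene Per2 ranged 4.77-fold, from 7.62 through 9.31 to 9.87, but its lower end was set by male rat 10 of batch 3. The next lowest Per2 value was 8.49. Per1 ranged 3.00-fold, from 9.05 through 9.86 to 10.64. Among the activators, Clock ranged 2.96-fold, from 9.57 through 10.67 to 11.13, and Arntl 2.06-fold, from 7.85 through 8.29 to 8.89. Nr1d2 (REV-ERBβ) ranged 2.22-fold, from 10.44 through 11.27 to 11.59.

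The spread that remained after sex and batch were fitted was set beside that of all genes with a mean level within 0.5 log2 units. The residual SD of Dbp was 0.375 log2 units, larger than that of 97.5% of such genes, whose median was 0.161. Nr1d1 had a residual SD of 0.381, above 96.6% of its like. Per2 (0.316) and Per1 (0.297) stood above 90.9% and 90.8%, Clock (0.255) above 86.8% and Nr1d2 (0.221) above 79.3%. Arntl (0.218) was in the middle, above 45.6% of genes of its level. Counting error, estimated from the recovered totals, made up between 0.71% of the residual variance in Dbp and 11.9% in Arntl. These figures are a description, with no test.

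**Figure D1:**
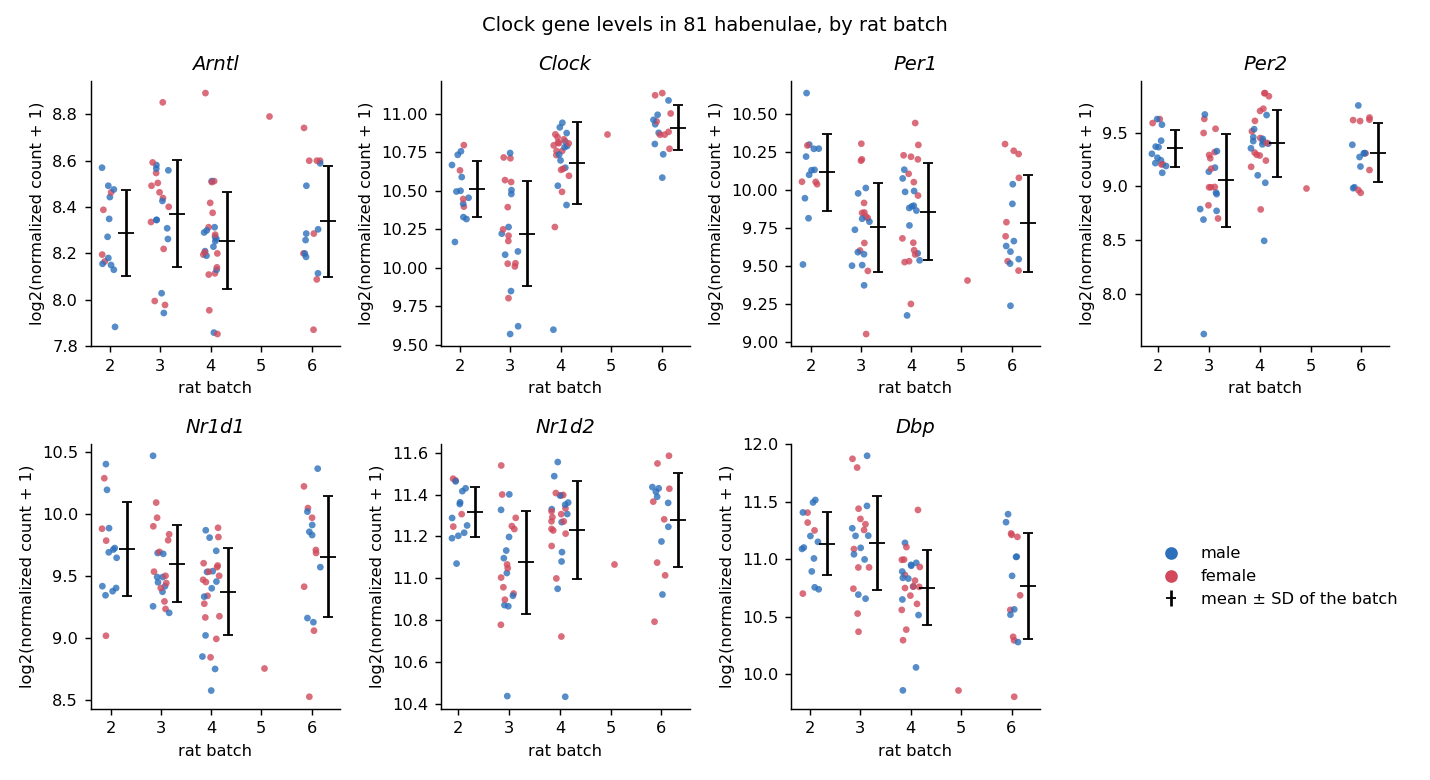
Level of each of the 7 clock genes in log2(normalized count + 1) against rat batch, with 1 point per rat (81 rats, males blue, females red) and the mean ± SD of each batch of over 1 rat beside the points. The axes differ between genes and do not start at 0. Clock runs from the lowest batch mean in batch 3 (10.22) to the highest in batch 6 (10.91), whereas the batches of Arntl lie together.

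The sexes did not differ in any of the 7 genes beyond the threshold. With rat batch as a covariate, limma called 0 of 7 genes, against 0.131% of all genes (23 of 17512). Without adjustment, 882 genes in the table and 1 of the 7, Per2, had p under 0.05. Per2 ranged from 7.62 through a median of 9.30 to 9.75 in males and from 8.70 through 9.31 to 9.87 in females. The medians lay close together and the ranges overlapped, with the lowest values in males. The difference of males minus females was -0.16 (SE 0.0708, n = 80, unadjusted limma p 0.0225, adjusted p 0.901). For the other 6 genes the difference lay between -0.12 in Per1 and 0.01 in Dbp, each with an adjusted p of 0.998. A test of whether the sex difference varied between batches also called 0 of 7, against 0% of all genes, where 306 genes but none of the 7 had an unadjusted p under 0.05.

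Rat batches differed in most clock genes, as they did in most genes of the table. The limma F-test over 4 batches, with sex as a covariate, called 6 of 7 clock genes, against 65.3% of all genes. The exception was Arntl, with an adjusted p of 0.341 and batch means between 8.25 in batch 4 and 8.37 in batch 3. In each of the 7 genes, the ranges of all 6 pairs of batches overlapped.

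Clock, which encodes the partner of BMAL1, varied most between batches. It ranged from 9.57 through a median of 10.21 to 10.74 in batch 3, from 10.17 through 10.49 to 10.80 in batch 2, from 9.60 through 10.76 to 10.94 in batch 4 and from 10.59 through 10.91 to 11.13 in batch 6. The order of the means was batch 3, 2, 4 and 6, at 10.22 ± 0.34 (SD, n = 22), 10.51 ± 0.18 (SD, n = 15), 10.68 ± 0.27 (SD, n = 27) and 10.91 ± 0.15 (SD, n = 16). The adjusted p of the F-test was 1.52e-10. Between neighbours in that order only batches 3 and 2 passed the threshold, with a difference of 0.32 log2 units (adjusted p 0.0163). Batches 2 and 4 (adjusted p 0.181) and batches 4 and 6 (adjusted p 0.0572) did not. With column run as a covariate these calls turned round: batches 2 and 3 then differed by 0.0056 (adjusted p 0.991), while batch 4 exceeded batch 2 by 0.56 (adjusted p 0.0204) and batch 6 exceeded batch 4 by 0.23 (adjusted p 0.0305). Batches 2 and 4 share no run, so that estimate is linked only through batch 3, which had 3 rats in run 3.

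The repressor genes Per1, Per2 and Nr1d2 each stood apart in a single batch. Per1 was highest in batch 2, at 10.12 ± 0.25 (SD, n = 15), and lay at 9.75 ± 0.29 (n = 22), 9.86 ± 0.32 (n = 27) and 9.78 ± 0.32 (n = 16) in batches 3, 4 and 6 (F-test adjusted p 0.00201). Without batch 2 the adjusted p for Per1 was 0.552. Per2 was lowest in batch 3, at 9.06 ± 0.43, against 9.36 ± 0.17, 9.40 ± 0.31 and 9.32 ± 0.27 in batches 2, 4 and 6 (F-test adjusted p 0.00219). Nr1d2 was also lowest in batch 3, at 11.08 ± 0.25, against means of 11.32, 11.23 and 11.28 in batches 2, 4 and 6 (F-test adjusted p 0.00769). Without batch 3 the adjusted p was 0.685 for Per2 and 0.480 for Nr1d2. The number of genes listed at 0 had a median of 630 and a maximum of 1661 per rat in batch 3, much like the 634 and 1491 of batch 4, against medians of 459 and 467.5 in batches 2 and 6. With that number as a covariate, the adjusted p was 0.0130 for Per2 and 0.0606 for Nr1d2.

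Without column run in the fit, Dbp divided the batches into pairs. It ranged from 10.70 through 11.15 to 11.52 in batch 2 and from 10.37 through 11.15 to 11.90 in batch 3, against 9.86 through 10.81 to 11.43 in batch 4 and 9.80 through 10.77 to 11.39 in batch 6. The medians of batches 2 and 3 stood above those of batches 4 and 6, while the ranges overlapped widely. The means were 11.14 ± 0.27 and 11.14 ± 0.41 in the former pair and 10.75 ± 0.33 and 10.77 ± 0.46 in the latter (F-test adjusted p 0.000641). Nr1d1 was lowest in batch 4, at 9.37 ± 0.35, against 9.72, 9.60 and 9.66 in batches 2, 3 and 6 (F-test adjusted p 0.0247). Its only pair of batches past the threshold was 2 and 4 (difference -0.36, adjusted p 0.0176), and without batch 4 the F-test gave an adjusted p of 0.716.

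Taken by pairs of batches, 4 of the 7 genes passed between batches 2 and 3 (Clock, Per1, Per2 and Nr1d2), against 7.44% of all genes. Between batches 2 and 4 it was 3 genes (Per1, Nr1d1 and Dbp), against 33.9%, and between batches 2 and 6 it was 3 (Clock, Per1 and Dbp), against 42.4%. Clock, Per2, Nr1d2 and Dbp made up the 4 called between batches 3 and 4, against 54.9%, and the 4 called between batches 3 and 6, against 59.2%. Between batches 4 and 6 limma called 0 of 7, against 6.04% of all genes. There, 2 of the 7 (Clock and Nr1d1) and 4421 genes of the table had an unadjusted p under 0.05.

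Rat batch and column run overlap strongly, and the part of the run in these differences cannot be told apart for batches that share no run. With column run as a covariate, the F-test called 1 of 7 genes, Clock (adjusted p 0.000149), against 35.3% of all genes. The calls of the other 5 were lost with wider errors. Some differences stayed about as large, while others shrank, grew or changed sign. In Dbp, batch 4 minus batch 2 was -0.38 (SE 0.120) without the run and -0.54 (SE 0.278) with it. Batch 4 minus batch 3 was -0.39 (SE 0.105) and -0.32 (SE 0.219). Batch 3 minus batch 2 in Dbp was 0.01 (SE 0.124) without the run and -0.22 (SE 0.168) with it. Inside run 1 it was -0.28 (SE 0.161, limma adjusted p 0.630). In Per1, batch 3 minus batch 2 was -0.40 (SE 0.0990) and -0.35 (SE 0.137), and batch 4 minus batch 2 was -0.30 (SE 0.0954) and -0.15 (SE 0.227). In Nr1d1, batch 4 minus batch 2 was -0.36 (SE 0.122) without the run and 0.09 (SE 0.286) with it. Batch 3 minus batch 2 went from -0.35 (SE 0.105) to -0.17 (SE 0.142) in Per2, and from -0.25 (SE 0.0739) to -0.09 (SE 0.0995) in Nr1d2. How much of these differences belongs to the run was not tested. The difference of batch 6 from batch 3 in Clock was 0.69 (SE 0.0822, adjusted p 8.67e-11) without the run and 0.78 (SE 0.142, adjusted p 1.92e-05) with it. Where batches and runs crossed, a run differed inside a batch: within batch 3, Clock was lower in the 12 rats of run 2 than in the 7 of run 1, by 0.48 (SE 0.109, limma adjusted p 0.00717). Clock was the 1 member called there, against 23% of all genes. In that batch Clock ranged from 10.03 through 10.57 to 10.74 in run 1 and from 9.57 through 10.10 to 10.39 in run 2. The rats of run 2 were the lower ones, with some overlap. Inside run 3, batch 6 exceeded batch 4 in Clock by 0.23 (SE 0.0700, limma adjusted p 0.0301), again the 1 member called, against 9.99% of all genes. Inside run 1, limma called 0 of 7 between batches 2 and 3, against 0% of all genes. Without adjustment, 1507 genes in the table and 1 of the 7 (Arntl) had p under 0.05.

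The next question was whether the clock genes vary together among rats of one sex and batch. Sex-by-batch means were removed from each gene, and Pearson's r was taken across 80 rats for each of the 21 pairs. A pair was called when limma, with either gene as a covariate for all other genes beside sex and batch, gave an adjusted p under 0.05. Of the 21 pairs, 12 were called, 8 with a positive r and 4 with a negative r, and the median size of r was 0.40. The share of all genes called in the same fits depended strongly on the covariate. It was 0.611% with Nr1d1, 1.05% with Arntl, 9.02% with Dbp and 12.4% with Per1. With Per2, Nr1d2 and Clock it was 35.1%, 37.7% and 57.1%. The pairs share genes and rats and are not independent of each other. Permutation p-values are two-sided, from 100000 permutations of rats within sex and batch, and 1e-05 is the smallest they can give.

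**Figure D2:**
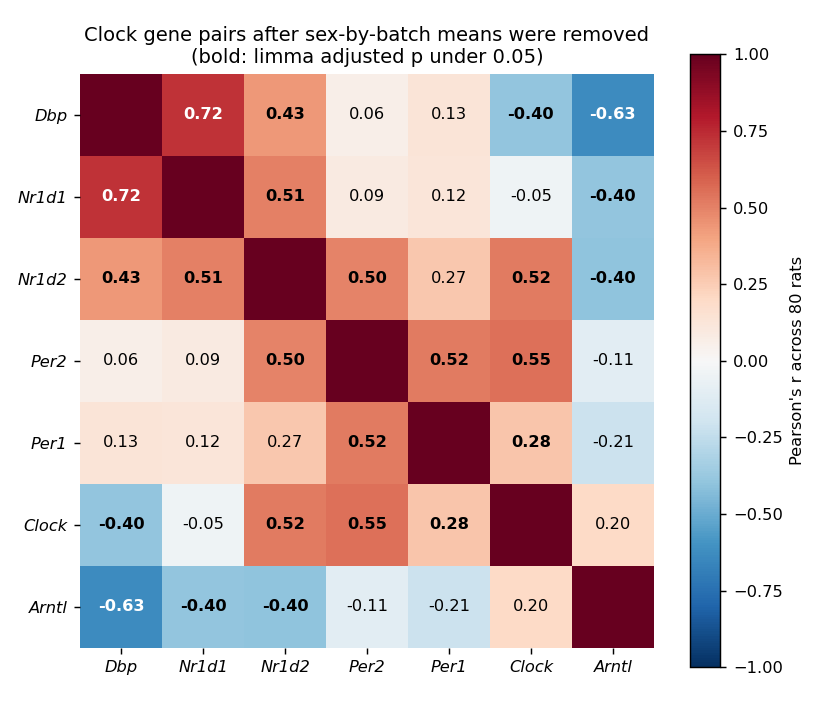
Pearson's r across 80 rats for each pair of clock genes, after sex-by-batch means were removed, with red for positive and blue for negative values and bold type for the 12 pairs called by limma. Dbp, Nr1d1 and Nr1d2 form a block of positive values, all 3 are negative with Arntl, and Clock, Per1, Per2 and Nr1d2 form another positive block.

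The closest relation was that of 2 direct targets of the activating dimer. Nr1d1 and Dbp rose and fell together, with r 0.72 (permutation p 1e-05) and Spearman's rho 0.70 (permutation p 1e-05). Without the 2 rats farthest from the median of Nr1d1, r was 0.67. The limma adjusted p was at most 6.16e-10 with either gene as the covariate. Within batches 2, 3, 4 and 6, r was 0.81, 0.68, 0.76 and 0.72, and it was 0.80 in males and 0.65 in females. Of the 17511 other genes, Dbp had the highest partial r given sex and batch with Nr1d1 (0.72), and Nr1d1 had the highest but 1 with Dbp.

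Arntl, the gene that the REV-ERBs repress, moved against these genes. With Dbp, r was -0.63 (permutation p 1e-05), rho was -0.59 (permutation p 1e-05), and r without the 2 farthest rats was -0.61. The limma adjusted p was at most 8.71e-06. The relation was negative in all 4 batches, at -0.20, -0.64, -0.58 and -0.87 in batches 2, 3, 4 and 6, and in both sexes, at -0.51 in males (lower limma adjusted p 0.202 in males alone) and -0.72 in females (0.00122). Dbp had the lowest partial r of all 17511 genes with Arntl, and it was also the largest in size. Arntl stood the 5th lowest with Dbp. The extremes show the pattern: male rat 24 of batch 3, the highest in Dbp (11.90) and Nr1d1 (10.47), had 7.94 for Arntl, and female rat 29 of batch 6, the lowest in both (9.80 and 8.52), had 8.74. The other low rat, male rat 19 of batch 4 (Dbp 9.86, Nr1d1 8.57), did not stand out in Arntl, at 8.25.

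Arntl was also negatively related to both of its REV-ERB genes, less closely. With Nr1d1, r was -0.40 (permutation p 0.00027), rho was -0.34 (permutation p 0.0031) and r without the 2 farthest rats was -0.33. The limma adjusted p was 0.0381 with the one gene as covariate and 0.0578 with the other, so the call depended on the choice, and r was 0.11 in batch 2 against -0.37, -0.57 and -0.55 in batches 3, 4 and 6. With Nr1d2, r was -0.40 (permutation p 0.00043), rho was -0.34 (permutation p 0.0038), r without the 2 farthest rats was -0.34 and the limma adjusted p was at most 0.0396. Within batches 2, 3, 4 and 6 it was -0.14, -0.07, -0.56 and -0.73, and it was -0.23 in males and -0.56 in females. The percentage of all genes called with Arntl as covariate was 1.05%, against 3 of its 6 fellow clock genes (Dbp, Nr1d1 and Nr1d2). With Nr1d1 as covariate it was 0.611%, against 2 of 6 (Dbp and Nr1d2), and with Dbp it was 9.02%, against 4 of 6 (Arntl, Clock, Nr1d1 and Nr1d2).

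The REV-ERB genes varied together and Nr1d2 also varied with Dbp. For Nr1d1 with Nr1d2, r was 0.51 (permutation p 3e-05), rho was 0.45 (permutation p 0.00013), r without the 2 farthest rats was 0.47 and the limma adjusted p was at most 0.00237. It was positive in every batch, between 0.38 in batch 3 and 0.69 in batch 2. Nr1d2 ranked 11th from the top among all genes with Nr1d1, while Nr1d1 ranked 666th from the top with Nr1d2. For Nr1d2 with Dbp, r was 0.43 (permutation p 0.00042), rho was 0.42 (permutation p 0.00031), r without the 2 farthest rats was 0.47 and the limma adjusted p was at most 0.00593. This relation was weakest in batch 3 (0.10) and reached 0.77 in batch 6.

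**Figure D3:**
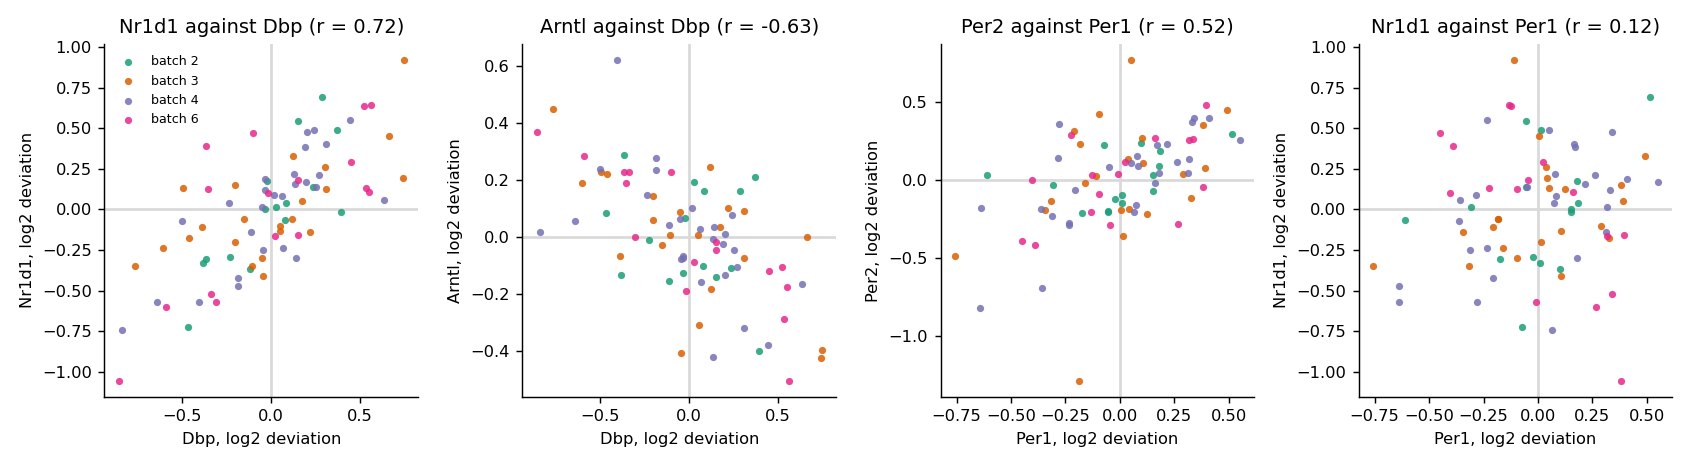
Deviation of each rat from the mean of its sex and batch, in log2 units, for 4 pairs of clock genes, with 1 point per rat (80 rats) coloured by batch. Points rise for Nr1d1 against Dbp (r 0.72) and Per2 against Per1 (r 0.52), fall for Arntl against Dbp (r -0.63), and show no common slope for Nr1d1 against Per1 (r 0.12), where batch 6 falls and batch 4 rises.

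The period genes also varied with each other. For Per1 with Per2, whose proteins inhibit CLOCK and BMAL1, r was 0.52 (permutation p 1e-05), rho was 0.54 (permutation p 1e-05), r without the 2 farthest rats was 0.45 and the limma adjusted p was at most 0.00120. Within batches 2, 3, 4 and 6, r was 0.41, 0.39, 0.71 and 0.55. Per2 ranked 19th from the top among all genes with Per1, while Per1 ranked 218th from the top with Per2. Per1 was related to none of the 3 other CLOCK targets beyond the threshold, at r 0.12 with Nr1d1, 0.13 with Dbp and 0.27 with Nr1d2 (lower limma adjusted p 0.591, 0.562 and 0.0636). Without batch 6 the partial r of Per1 was 0.40 with Nr1d1 (lower limma adjusted p 0.0161) and 0.41 with Nr1d2 (lower limma adjusted p 0.00382). Both of these passed the threshold, while 0.24 with Dbp did not (lower limma adjusted p 0.152). Per2 had r 0.09 with Nr1d1 and 0.06 with Dbp (lower limma adjusted p 0.531 and 0.715), but 0.50 with Nr1d2 (permutation p 8e-05, rho 0.45 with permutation p 0.00018, r 0.44 without the 2 farthest rats, limma adjusted p at most 8.40e-05). Within batches, Per2 with Nr1d2 lay between -0.02 in batch 2 and 0.61 in batch 3. With Per1 as covariate limma called 1 of 6 fellow clock genes (Per2), against 12.4% of all genes, and with Per2 as covariate 3 of 6 (Clock, Per1 and Nr1d2), against 35.1%.

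Clock was called with Per2, Nr1d2, Per1 and Dbp, though many genes of the table varied with Clock as closely. The median size of the partial r with Clock over 17511 genes was 0.31, above that of Per1 (0.28). By size, Per2, Nr1d2, Dbp and Per1 ranked 4369th, 4848th, 7104th and 9378th with Clock. In the other direction, Clock ranked 142nd with Per2, 961st with Nr1d2, 479th with Dbp and 3136th with Per1. For Clock with Per2, r was 0.55 (permutation p 1e-05), rho was 0.48 (permutation p 1e-05), r without the 2 farthest rats was 0.48 and the limma adjusted p was at most 1.87e-05. For Clock with Nr1d2, r was 0.52 (permutation p 7e-05), rho was 0.37 (permutation p 0.0019), r without the 2 farthest rats was 0.40 and the limma adjusted p was at most 1.57e-05. Both relations were near 0 in batch 6 (-0.11 and -0.01) and 0.81 and 0.66 in batch 4. In males they were 0.62 and 0.70, and in females 0.43 and 0.24, where Clock with Nr1d2 was not called (lower limma adjusted p 0.245). Whether r differed between the sexes was not tested. With Per1, r was 0.28 (permutation p 0.011), rho was 0.25 (permutation p 0.027), r without the 2 farthest rats was 0.21 and the limma adjusted p was 0.0240 or 0.0774, according to the covariate. Within batches it ran from 0.03 in batch 3 to 0.58 in batch 4. With Dbp, r was -0.40 (permutation p 0.00076), rho was -0.44 (permutation p 6e-05), r without the 2 farthest rats was -0.48 and the limma adjusted p was at most 0.0142. It was negative in every batch, between -0.59 in batch 6 and -0.14 in batch 4.

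The relations of Clock have to be read beside its relation to the whole table. With Clock as covariate limma called 57.1% of all genes, against 4 of its 6 fellow clock genes, and with Nr1d2 it called 37.7%, against 5 of 6 (all but Per1). The leading principal component of the residuals of all genes, which held 7.88% of their variance, had an r of 0.90 with Clock (permutation p 1e-05, rho 0.88 with permutation p 1e-05, r 0.91 without the 2 rats farthest on that component). The median size over all genes was 0.33. The component had an r of 0.54 with Per2, 0.51 with Nr1d2, 0.37 with Per1, -0.31 with Dbp, 0.09 with Arntl and 0.07 with Nr1d1. Without the 2 rats farthest on it, these were 0.48, 0.36, 0.24, -0.43, 0.30 and -0.04 in the same order. The 7 genes are themselves among those from which it was computed. In the fit with 20 expression components as covariates, the partial r of Clock with Per2 was 0.02 and with Nr1d2 was 0.01, while that of Nr1d1 with Dbp, of Arntl with Dbp and of Per1 with Per2 stayed on the same side of 0. What the component stands for was not tested. The number of genes listed at 0 had an r between -0.27 (Clock) and 0.03 (Dbp) with the 7 genes.

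**Figure D4:**
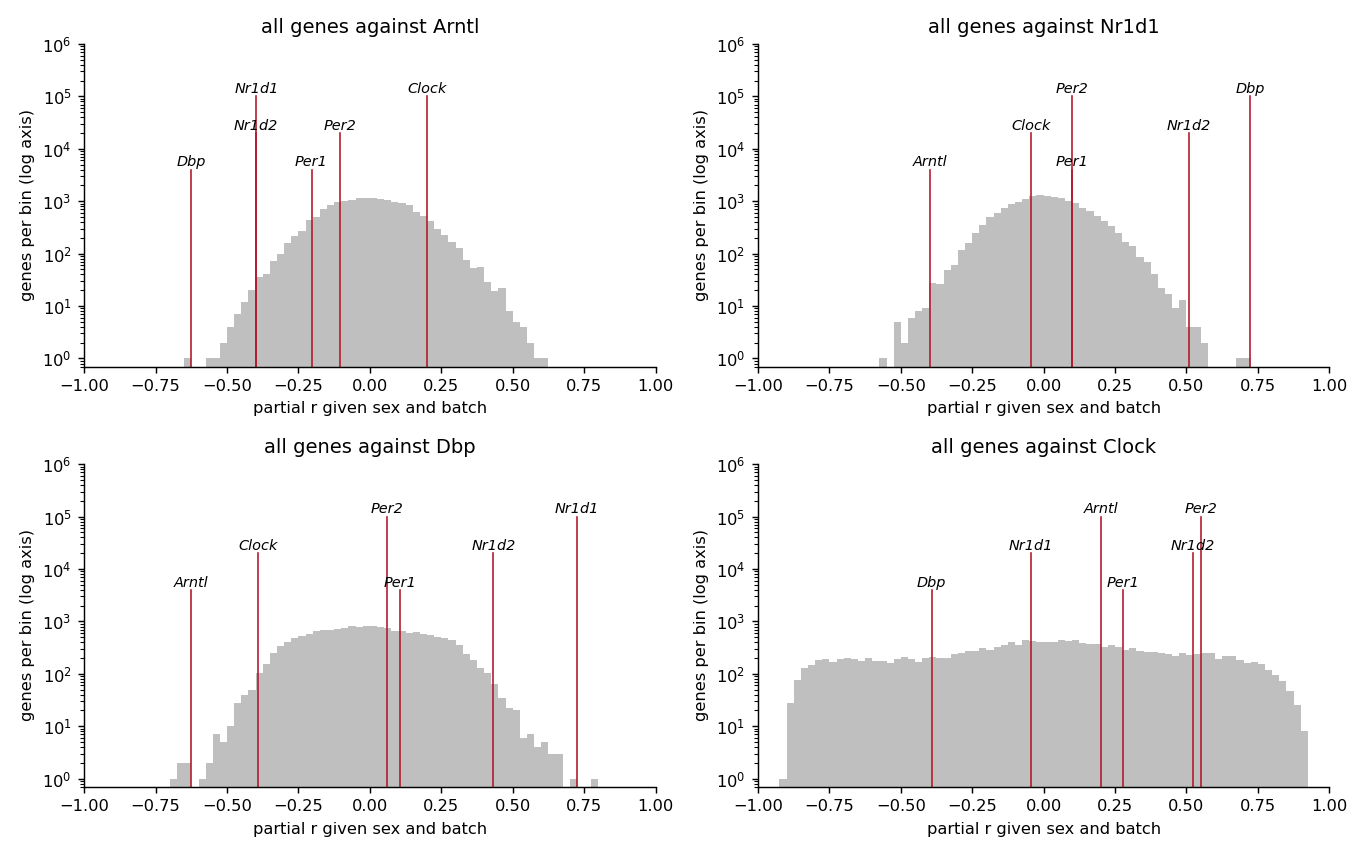
Histograms of the partial r, given sex and batch, of 17511 other genes with Arntl, Nr1d1, Dbp and Clock (bins of 0.025, logarithmic vertical axis), with the 6 fellow clock genes marked in red. Dbp lies at the lower end for Arntl and at the upper end for Nr1d1, whereas for Clock the histogram is broad and all 6 clock genes lie inside it.

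Of the 21 pairs, 8 had the same sign in each of the 4 batches, and all 8 were among the 12 called. Those were Nr1d1 with Dbp, Arntl with Dbp, Per1 with Per2, Nr1d1 with Nr1d2, Nr1d2 with Dbp, Clock with Dbp, Arntl with Nr1d2 and Clock with Per1. The calls were made on the same rats pooled over these batches, so this overlap is no separate support for them. How often other pairs of genes keep 1 sign in the 4 batches was not computed. The widest disagreement between batches was that of Per1 with Nr1d1, at r 0.35, 0.30 and 0.49 in batches 2, 3 and 4 but -0.70 in batch 6. An F-test of whether the slope differed between batches, added after the data were seen, gave an unadjusted limma p of 2.71e-05 and an adjusted p of 0.0527. It did not pass the threshold, nor did any other pair. Without adjustment, 8 of the 21 pairs had a p under 0.05 in this test, taking the lower p of each pair. Between 890 and 3601 of the 17511 genes did so, according to the covariate, and over all genes the adjusted test called 532 with Clock as the covariate and between 0 and 8 with each of the other 6. Of the pairs not called, Arntl had r -0.21 with Per1, -0.11 with Per2 and 0.20 with Clock, and Clock had -0.05 with Nr1d1 (in that order, lower limma adjusted p 0.227, 0.509, 0.124 and 0.766).

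**Figure D5:**
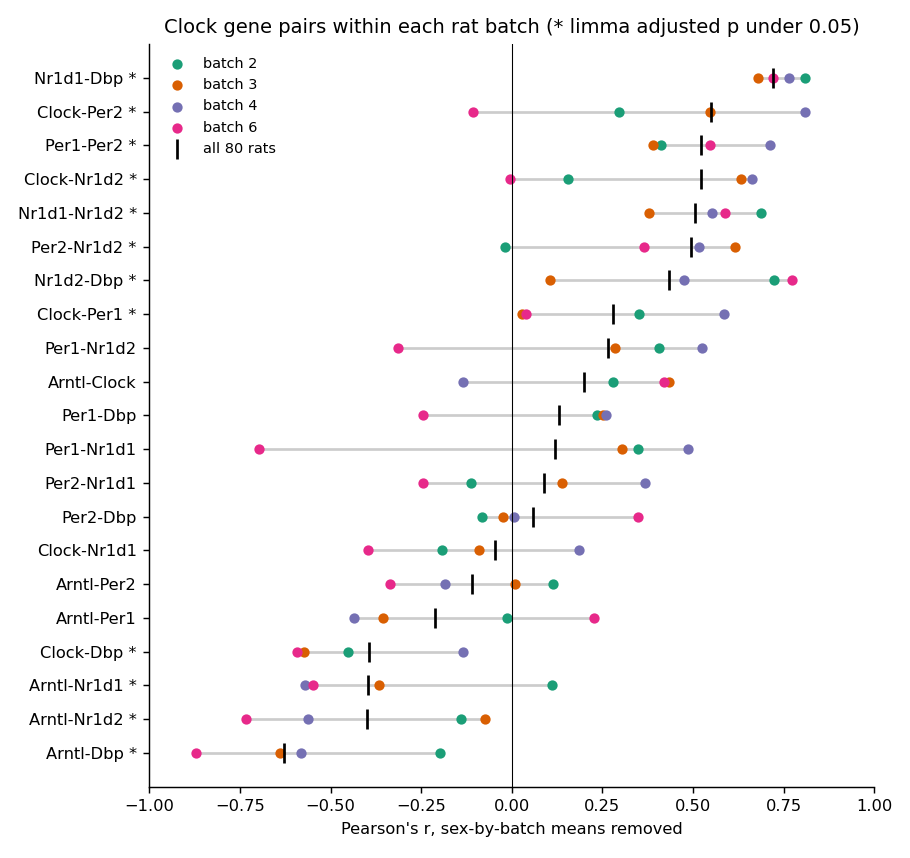
Pearson's r of each of the 21 clock gene pairs within batches 2, 3, 4 and 6 (coloured points) and over all 80 rats (black bars), with asterisks for the pairs called by limma and grey lines from the lowest to the highest batch. Nr1d1 with Dbp has the narrowest range, from 0.68 to 0.81, and Per1 with Nr1d1 the widest, from -0.70 to 0.49.

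Other genes of the table can be given only by identifier, since no table used here pairs these identifiers with symbols. Where genes averaged 5 or more on the log2 scale, ENSRNOG00000042717 had the highest partial r with Dbp, 0.79. It had 0.69 with Nr1d1 and -0.48 with Arntl. The lowest with Dbp was that of ENSRNOG00000005908, at -0.69, which had 0.40 with Arntl. Both were picked after their values had been seen.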

How the data were processed

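Polyadenylated RNA of the LHb was sequenced. According to the study's methods and the submitters' processing notes, the authors trimmed reads with cutadapt, estimated counts per gene with RSEM on the Ensembl rat transcriptome (build Rnor_6.0), adjusted them to a common upper quartile with DESeq2 and removed 6 of 87 libraries. Versions are not given in the sources used here. The authors deposited log2 values with a pseudocount of 1, and 100% of them gave whole normalized counts within a relative tolerance of 2e-05. Upper quartiles lay between 853 and 870. Such scaling makes rats comparable at middle levels, and log2 differences of low genes are too small.

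The 7 genes and all lists were chosen with earlier results of these data known. The intended lists of other clock genes and cell type markers could not be applied, because no table used here pairs the identifiers with symbols. Under the rule for named genes this left the 7 genes, whose symbols came with the given list, and the tissue label was not checked against markers. Coordinates and sequences come from RefSeq (GRCr8) and were not mixed with the build of the files.

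Rats were grouped by the labelled sex and rat batch, and replicate numbers only name rats. limma 3.58.1 in R 4.3.3 (lmFit, eBayes with trend) was fitted to the log2 values of all 17512 genes in 80 rats, with Benjamini-Hochberg adjustment over all genes. The scripts were tested on simulated data. Libraries' totals were recovered from the spacing of low counts where the best factor led by 10 log-likelihood units. In 40 simulated libraries this resolved 37, of which 36 were within 1% of the truth. Relatedness of rats was not modelled, and each rat counts as 1 replicate. Permutations used numpy 2.4.6 in Python 3.11.15. The alternatives were a pseudocount of 8, a minimum mean log2 of 5, a rank-based transformation, column run, genes listed at 0 or 20 expression components as covariates, leaving out each batch or 2 rats with exchanged labels, and each batch or sex alone. Contrasts within runs, the slope test and the recovered total as covariate were added after the data were seen.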

Additional observations from a re-analysis of the deposited data

Results flagged for a closer look

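In 28 sets of 4 to 10 rats of the same sex, batch and gene, 3 held a rat far from the others by Dixon's criterion, which chance meets in about 1 of 20 sets (1.4 of 28). Female rat 40 of batch 2 had a Per1 level of 10.29, against 10.04 to 10.05 in the other females of that batch (n = 4). Male rat 10 of batch 3 had a Per2 level of 7.62, against 8.69 to 9.67 in the other males of that batch (n = 10), and 1491 genes were listed at 0 in this rat. Male rat 24 of batch 3 had an Nr1d1 level of 10.47, against 9.20 to 9.69 in the other males (n = 10), and it also had the highest Dbp level of all rats, 11.90.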

How the results depend on the processing

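The counts of clock genes called by sex (0) and by the interaction (0) were the same under all 11 alternatives. The batch count of 6 was 1 with column run as a covariate and 0 with 20 expression components. In the contrasts, which used fewer rats, it was 0 for batches 2 and 3 within run 1. It was 1 for batches 4 and 6 within run 3, and 1 for runs 1 and 2 within batch 3. It lay between 4 and 6 elsewhere. Of all 17512 genes, the F-test called 11444 in the main fit, 6180 with column run and 20 with 20 components. The contrasts called 0%, 9.99% and 23% of all genes, in the same order. The count of 12 called pairs was 0 in batch 2 alone, 6 in batch 3 alone, 1 in batch 6 alone and 6 in males alone, each with fewer rats. In batch 2 alone limma called 0 of 17505 genes with each covariate but Clock, and 4349 with Clock. In batch 6 alone it called between 0 and 15 of 17488. The calls ran from 0 (Arntl) to 7422 (Clock) of 17511 in batch 3 alone, and from 2 (Nr1d1) to 8771 (Clock) in males alone. The median residual SD fell from 0.297 to 0.232 with 20 components.

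Nr1d1 with Dbp, Arntl with Dbp, Nr1d1 with Nr1d2, Nr1d2 with Dbp and Per2 with Nr1d2 were called in 12 of 12 settings that pooled batches and sexes, and Clock with Per1 and Arntl with Nr1d1 in 7. Per1 with Per2, Clock with Per2 and Clock with Nr1d2 were called in 11 each, and Arntl with Nr1d2 and Clock with Dbp in 10. The losses were Per1 with Per2 without batch 4 (0.40, adjusted p 0.0539), Arntl with Nr1d2 without batch 4 or batch 6 (-0.31 and -0.30), and Clock with Dbp without batch 3 (-0.28) and under 20 components (-0.23). Clock with Per2 and with Nr1d2 was lost under 20 components. Arntl with Nr1d1 was lost under 20 components, without batch 3, 4 or 6, and with the recovered total as a covariate. Clock with Per1 was lost with genes listed at 0, 20 components or the recovered total as covariates, and without batch 2 or 4. The fit with the recovered total used only rats in which that total was recovered, so it had fewer rats. In it the partial r was -0.39 for Arntl with Nr1d1, against -0.40 in the main fit. For Clock with Per1 it was 0.27, against 0.28. The sign of r turned for called pairs in Arntl with Nr1d1 (0.11) and Per2 with Nr1d2 (-0.018) in batch 2 alone, in Clock with Per2 (-0.11) and Clock with Nr1d2 (-0.0065) in batch 6 alone, and in Clock with Per1 under 20 components (-0.065). The cause was not tested. Pairs not called otherwise passed the threshold in 7 cases: under 20 components, Per2 with Dbp (0.49) and Arntl with Per2 (-0.47), without batch 6, Per1 with Nr1d1 (0.40) and with Nr1d2 (0.41), in batch 4 alone, the same pairs (0.49 and 0.52), and without batch 4, Arntl with Clock (0.38).

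Pairs that were not called turned as follows. In batch 2 alone it was Arntl with Per2 (0.11), Per2 with Nr1d1 (-0.11) and Per2 with Dbp (-0.082), and in batch 3 alone Arntl with Per2 (0.0075) and Per2 with Dbp (-0.025). In batch 4 alone it was Arntl with Clock (-0.13) and Clock with Nr1d1 (0.19). In batch 6 alone it was Arntl with Per1 (0.23), Per1 with Nr1d1 (-0.70), Per1 with Nr1d2 (-0.32), Per1 with Dbp (-0.24) and Per2 with Nr1d1 (-0.25). Without batch 4 it was Per1 with Nr1d1 (-0.094) and Per2 with Nr1d1 (-0.018), and without batch 6 Per2 with Dbp (-0.024) and Clock with Nr1d1 (0.013). Clock with Nr1d1 was 0.042 in males alone and 0.0062 with the recovered total as a covariate.

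Sex differences, none called, turned under 20 components in Clock (0.12), Per1 (0.13), Per2 (0.34), Nr1d1 (0.18) and Nr1d2 (0.10), in Nr1d1 without batch 4 (0.0012), and in Dbp with column run (-0.0069) or without batch 6 (-0.044). The alternative with cell type markers as covariates and the counts of other clock genes were not run, because identifiers could not be paired with symbols. No paired analysis was possible because replicate numbers only name the rats.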

Other observations

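The single rat of batch 5, a female, entered no fit. Its Dbp level of 9.86 equalled that of the next to lowest of the fitted rats, and its Nr1d1 level was 8.76. Arntl stood at 8.79 in it, above all but 2 of the fitted rats. Per1 was at 9.41, Per2 at 8.98, Nr1d2 at 11.07 and Clock at 10.87.

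Male rat 35 of batch 4 was low in several clock genes at once. It had the lowest Nr1d2 level of all rats (10.44) and the next to lowest levels of Clock (9.60), Per1 (9.17) and Per2 (8.49), whereas its Dbp level was 10.51 and its Arntl level was 8.51, the highest among the males of batch 4. Its recovered total was 18.3 M (M, 1000000 counts), and 793 genes were listed at 0 in it.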
